A study of Mus musculus with 48 samples.

Results

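The constitutive proteasome subunits comprised 36 of the 49671 genes in the count table: protein-coding genes with a Psma, Psmb, Psmc or Psmd symbol and a number, without the interferon-inducible catalytic subunits Psmb8, Psmb9 and Psmb10. Of these, 34 were tested after a filter on low counts that left 12203 genes. RNA was measured by stranded sequencing of poly(A) RNA in NMM, a mouse melanoma line with mutated NRAS, and the series title places the work among cytokines that CD8+ T cells release in tumours. There were 12 groups, each with 1 library at 2, 6, 12 and 24 h of continuous exposure, 48 libraries in all. The groups were IFNγ at 100 ng/ml together with TNF at 10 ng/ml (called the combination here), IFNγ alone at 0.01, 1 or 100 ng/ml, TNF alone at 0.1, 1 or 10 ng/ml, TGF-β at 10 ng/ml, IL-2 at 6000 U/ml, IFNα1 at 5000 U/ml, lymphotoxin α1β2 (LT in the label fields) at 2 ng/ml, and unstimulated cells. All groups share the 1 cell line and its NRAS mutation. Within a group the 4 libraries differ in duration, so none is a replicate of another. The labels do not mention separate cultures, and p-values therefore measure only the spread between these libraries.

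The 26S proteasome degrades proteins tagged with ubiquitin. Its 20S core is a barrel of outer α rings and inner β rings, and proteolysis is carried out in the β rings by Psmb5, Psmb6 and Psmb7. The 19S particle caps the core: its base holds a ring of ATPases that unfold and feed in substrates, and its lid holds the subunit that removes ubiquitin. IFNγ is known to induce Psmb8, Psmb9 and Psmb10, which take the places of the constitutive catalytic subunits in newly built particles and change which peptides are made for MHC class I.

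Libraries held 5612907 to 9663207 counts, and the 34 tested members had between 114 (Psmd10) and 4487 (Psmd2) counts in any 1 library. Levels below are CPM, counts brought to a common library total with TMM factors, a scaling that holds most genes level between libraries. Of 8 melanocyte genes, 6 never reached 1 CPM in any library. Over the 48 libraries Sox10, Tyr and Tyrp1 had 2 counts each, Mlana and Dct had 0, and Mitf had 2555, so most markers that define the labelled cell type were at or near 0. The T and NK cell list summed to at most 0.394 CPM in any library, and to 0 in both the combination and unstimulated libraries. The fibroblast genes Dcn and Pdgfra had 7483 and 2906 counts. The fibroblast list summed to 17.7 to 32.3 CPM with the combination and 22.2 to 34.5 CPM in unstimulated cells, and at 24 h the log2 ratio was -0.95 for Dcn and 1.07 for Pdgfra. The endothelial list, Pecam1 with 39 counts and Cdh5 with 2381, summed to 4.64 to 14.4 CPM with the combination and 3.58 to 6.48 CPM in unstimulated cells. Cdh5 had 13.05 and 14.37 CPM with the combination at 12 and 24 h, against 4.502 and 6.478 CPM in unstimulated cells. The macrophage list summed to 2.95 to 4.46 CPM with the combination and 2.01 to 4.02 CPM in unstimulated cells. The part of these lists in the results was not tested.

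The promoter windows of 4 members are shown because they belong to the 3 members with the largest changes in the combination and to Psmb5, a catalytic subunit that was not called there. Each runs from 250 bases before to 50 bases after the gene's start in RefSeq on build GRCm38.p6, on the gene's own strand. Capitals mark matches, on either strand, to any of the 6 motifs described after the sequences.
Psmd10, chrX:140956662-140956961, minus strand: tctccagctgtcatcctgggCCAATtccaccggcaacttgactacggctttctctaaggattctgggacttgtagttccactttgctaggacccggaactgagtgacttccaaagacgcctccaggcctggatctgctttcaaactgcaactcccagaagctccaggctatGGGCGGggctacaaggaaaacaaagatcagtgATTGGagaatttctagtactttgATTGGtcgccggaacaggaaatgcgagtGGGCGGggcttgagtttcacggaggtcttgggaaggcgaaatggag
Psma5, chr3:108256676-108256975, plus strand: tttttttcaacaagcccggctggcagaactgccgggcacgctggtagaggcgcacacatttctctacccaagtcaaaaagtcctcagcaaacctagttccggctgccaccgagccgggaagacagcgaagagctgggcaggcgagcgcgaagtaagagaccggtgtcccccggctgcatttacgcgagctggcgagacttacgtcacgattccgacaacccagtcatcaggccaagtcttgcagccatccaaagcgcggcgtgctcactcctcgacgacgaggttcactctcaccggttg
Psmd11, chr11:80428365-80428664, plus strand: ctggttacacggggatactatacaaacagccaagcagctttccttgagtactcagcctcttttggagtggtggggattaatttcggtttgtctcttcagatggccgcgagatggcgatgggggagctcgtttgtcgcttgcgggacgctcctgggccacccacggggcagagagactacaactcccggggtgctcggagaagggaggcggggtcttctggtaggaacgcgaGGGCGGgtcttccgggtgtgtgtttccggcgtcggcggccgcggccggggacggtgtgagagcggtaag
Psmb5, chr14:54617946-54618245, minus strand: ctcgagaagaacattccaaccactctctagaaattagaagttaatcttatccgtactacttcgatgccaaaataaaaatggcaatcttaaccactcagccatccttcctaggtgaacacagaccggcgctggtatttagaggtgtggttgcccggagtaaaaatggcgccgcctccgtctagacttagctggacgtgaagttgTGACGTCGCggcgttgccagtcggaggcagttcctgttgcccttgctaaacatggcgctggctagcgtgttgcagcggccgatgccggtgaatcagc

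The motifs searched were the antioxidant response element core TGACNNNGC, which Nfe2l1 and Nfe2l2 bind, the interferon-related GAS (TTCNNNGAA) and ISRE core, CCAAT, the GC box GGGCGG, and the NF-κB site, which was added after values had been seen. Each motif was counted on its own on both strands, and 29 members had a window in the table. The antioxidant core stood in 5 members (17.2%, against 14% of 26996 other genes), among them Psmb5. GC boxes stood in 18 members (62.1%, against 38.2%) and CCAAT in 12 (41.4%, against 41.1%). GAS stood in 1 member (3.45%, against 9.56%), the ISRE core in 3 (10.3%, against 3.99%) and the NF-κB site in 1 (3.45%, against 5.14%). The Psma5 window held no match to the 6 motifs, Psmd11 held 1 GC box, and Psmd10 held 3 CCAAT matches and 2 GC boxes. A match is a description of these letters and not a site shown to be bound.

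In unstimulated cells the tested subunits of the core and of the 19S particle, without the assembly chaperones, ran from 47.1 CPM per kb of exon (Psmb1) to 153 (Psmb6). Psmb6, a catalytic subunit, was highest at 153 ± 1.22 CPM per kb (SD, n = 4 durations), followed by Psmd2, a large scaffold of the base, at 149 ± 3.78 and Psma1 at 148 ± 13.9. These 3 means differed by less than the SD of Psma1 over the durations. The lowest 3 tested members per kb were the dedicated chaperones of base assembly, Psmd5 (18.3 ± 1.27 CPM per kb), Psmd10 (15.9 ± 1.08) and Psmd9 (12.3 ± 1.57), below every core or lid subunit on this scale. Psmb5 stood at 56.7 ± 3.19, against 153 ± 1.22 for Psmb6 and 119.5 ± 4.4 for Psmb7. These ranks depend on the exon length, pooled over coding transcripts, which ran from 766 bases (Psmb3) to 4397 (Psmd5). As median CPM over the 48 libraries, Psmd5 (80.4) lay above Psmb5 (47.7), and Psmb1 (161.5) above Psmb6 (125.9). Psmd9 (34.2) and Psmd10 (23.3) remained the lowest tested members. Psma8 and Psmb11, which are known from testis and thymus, had at most 1 count in any library and were not tested.

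**Figure D1:**
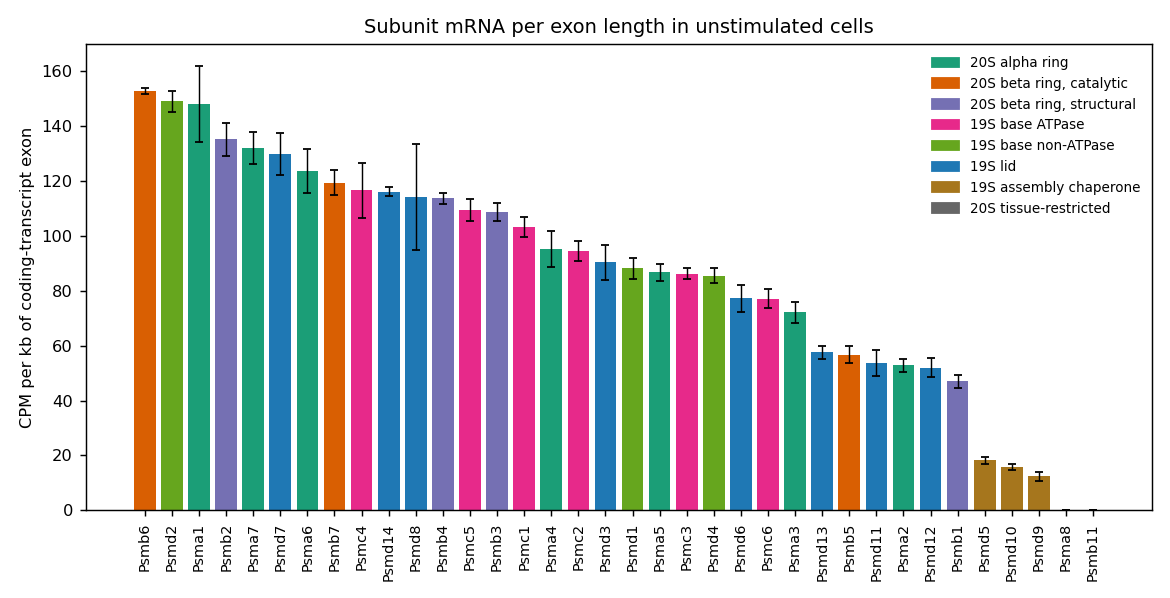
Mean CPM per kb of exon of protein-coding transcripts for the 36 members in unstimulated cells, with bars coloured by role and error bars showing the SD over 4 durations. Psmb6 is highest at 153 CPM per kb, the assembly chaperones Psmd5, Psmd10 and Psmd9 are lowest among those tested at 18.3 to 12.3, and Psma8 and Psmb11 are at 0.

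Across all 48 libraries the members varied little. The SD of log2 CPM had a median of 0.11 over the 34 tested members and 0.26 over all genes tested. It was 0.19 over the 6476 other genes with a mean level between the lowest and highest member. These genes were not matched to the members' levels within that range. Among members the SD was lowest for Psmd2 (0.079) and highest for Psmd10 (0.31), with Psmd8, a lid subunit, next at 0.23. Over 561 pairs of members, the median Pearson correlation of log2 CPM was 0.44 across the 48 libraries, which share cells, durations and scaling, and 0.37 after the means of each stimulus and duration were removed. With all other genes it was -0.018. Pairs within the ATPase ring had a median of 0.60, those within the α ring 0.58 and those among the 3 catalytic subunits 0.12. The highest pair was Psma3 with Psma4 (0.83) and the lowest was Psmd6 with Psma1 (-0.44).

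The combination raised many subunits by small amounts. Of 34 tested members, 16 were higher and 0 lower, where 20.9% of all tested genes were higher and 21.2% lower (edgeR quasi-likelihood test, adjusted p under 0.05). The median change of the members was 0.15 on the log2 scale, and that of all genes was -0.03. The share of all genes was not matched to the members for level or variation. The median SD of log2 CPM was 0.11 over members and 0.26 over all genes, and smaller changes can be called where variation is low. Called members gained between 0.15 (Psmd7) and 0.55 (Psmd10). Called members were spread over the α ring (5 of 7), the non-catalytic β subunits (3 of 4), the ATPases (2 of 6), the other base subunits (1 of 3), the lid (4 of 8) and the base chaperones (1 of 3). None of the 3 catalytic subunits was called in this fit, while Psmb6 and Psmb7 were called higher in some alternatives given below. With the compared groups alone 4 members were called higher and 0 lower, where 11.4% of all genes were higher and 6.36% lower. That share of members called higher was near that of all genes. Without the duration term 12 members were called. Without the 12 h libraries 10 members were called, and without those of 6 h, 23, Psmb6 (0.23) and Psmb7 (0.16) among them. For the fits without the duration term or without a duration, the share of all genes called is not given here. In bulk RNA, fewer cells of a type and less RNA per cell cannot be told apart.

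The members' share of all counts at 2, 6, 12 and 24 h was 0.541%, 0.503%, 0.545% and 0.554% with the combination, against 0.532%, 0.553%, 0.533% and 0.534% in unstimulated cells, and was lower with the combination at 6 h. On library totals with no TMM factors, an alternative added after seeing these shares, 5 members were higher (Psmd10, Psma5, Psmd11, Psma4 and Psmd8) and 6 were lower (Psmb3, Psmb5, Psmc1, Psmd6, Psmd13 and Psmd5), where 13.2% of all genes were higher and 44.8% lower. That scaling moved the median of all genes by -0.17, to -0.20. The members' median was then -0.02, with 14 of 34 members above 0. The members' median stood 0.18 above the median of all genes under either scaling, with 32 of 34 members above it. A change of scaling moves all genes by nearly the same amount, so this agreement was fixed in advance and adds no support. Rises given below are relative to most other genes. With the combination, those of the 5 members named as higher were called under both scalings.

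Psmd10, also known as gankyrin, is a chaperone that helps assemble the ATPase ring. It lies on chromosome X at 140948429 to 140956728. It had 29.4, 35.5, 39.5 and 32.97 CPM with the combination at 2, 6, 12 and 24 h, and 23.2, 25.4, 21.5 and 23.5 CPM in unstimulated cells. Every combination library was above every unstimulated library. The change was 0.55 ± 0.11 (log2 ± SE, edgeR, adjusted p = 4.57e-05), or 1.47-fold.

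Psma5, the α5 subunit of the core (chromosome 3, 108256926 to 108279974), had 134, 155, 143 and 133 CPM with the combination over the same durations and 106, 106, 105 and 113 CPM in unstimulated cells. The groups did not overlap and the widest gap was at 6 h. Its change was 0.39 ± 0.07 (edgeR, adjusted p = 5.94e-06). Psma4, the α3 subunit (chromosome 9, 54950790 to 54958030), had 129, 142, 156 and 140 CPM with the combination and 110, 122, 107 and 105 CPM in unstimulated cells. These too did not overlap, and the change was 0.36 ± 0.06 (edgeR, adjusted p = 7.35e-06). Psma2, Psma6 and Psma3 rose by 0.24, 0.24 and 0.22. Psma7 (0.09) and Psma1 (0.08) did not pass the test.

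Psmd11, a lid subunit that helps tie the lid to the core and base (chromosome 11, 80428615 to 80473248), had 187, 186, 210 and 238 CPM with the combination and 178, 160, 153 and 146 CPM in unstimulated cells. The groups did not overlap and lay closest at 2 h. The change over the 4 durations was 0.37 ± 0.08 (edgeR, adjusted p = 0.000147). With the compared groups alone it was 0.37 (edgeR, adjusted p = 0.0597). Psmd8, another lid subunit, had 335, 303, 306 and 288 CPM with the combination and 304, 268, 214 and 219 CPM in unstimulated cells. It was higher with the combination at each duration, but the ranges overlapped, and in both groups the libraries of 24 h lay below those of 2 h (0.31 ± 0.06, edgeR, adjusted p = 7.44e-05).

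Psmb2, a non-catalytic β subunit, had 130, 129, 162 and 156 CPM with the combination and 123, 117, 112 and 113 CPM in unstimulated cells. The groups did not overlap, and the gap was wide only in the libraries of 12 and 24 h (0.31 ± 0.07, edgeR, adjusted p = 0.000314). Psmb4 and Psmb1 rose by 0.28 and 0.22, while Psmb3 stood at -0.04. Of the ATPases, Psmc3 and Psmc4 rose by 0.18 and 0.16, and of the other base subunits Psmd4, a ubiquitin receptor, rose by 0.22. In the lid, Psmd3 and Psmd7 rose by 0.18 and 0.15.

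The changes of the catalytic subunits ran from -0.03 to 0.15. Psmb5, which cuts after hydrophobic residues (chromosome 14, 54614120 to 54617995), had 51.5, 45.9, 52.0 and 49.9 CPM with the combination and 50.9, 50.2, 54.8 and 47.9 CPM in unstimulated cells, and the groups overlapped (-0.03 ± 0.07, edgeR, adjusted p = 0.746). Psmb6, which cuts after acidic residues, had 125, 119, 146 and 153 CPM with the combination and 122, 123, 122 and 121 CPM in unstimulated cells. Its libraries at 12 and 24 h lay above every unstimulated library and that at 6 h lay below them (0.15 ± 0.07, edgeR, adjusted p = 0.0719). Psmb7, with trypsin-like activity, had 151, 141, 155 and 152 CPM with the combination and 139, 141, 132 and 143 CPM in unstimulated cells, and the ranges overlapped (0.11 ± 0.05, edgeR, adjusted p = 0.0748). With DESeq2 size factors in edgeR Psmb7 was called higher (0.12, adjusted p = 0.0497), and without the 6 h libraries both Psmb6 and Psmb7 were (edgeR, adjusted p = 0.0119 and 0.0464). Psmb7 was also called higher by DESeq2 (0.12, adjusted p = 0.0481) and with IL-2 in place of unstimulated cells (0.17, edgeR, adjusted p = 0.00517). Within the 12 and 24 h libraries Psmb6 was called higher (0.30, edgeR, adjusted p = 0.00256). The least variable member, Psmd2, had 463, 420, 479 and 500 CPM with the combination and 442, 426, 453 and 445 CPM in unstimulated cells, with overlap (0.08 ± 0.05, edgeR, adjusted p = 0.217). Psmb7 shares 405 exonic bases with Nek6 on the opposite strand, Psmc3 shares 215 with Slc39a13, and Psmd13 shares 342 with Sirt3. The strand setting of the counting is not given in the sources used here, so reads in such stretches cannot be assigned with certainty.

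**Figure D2:**
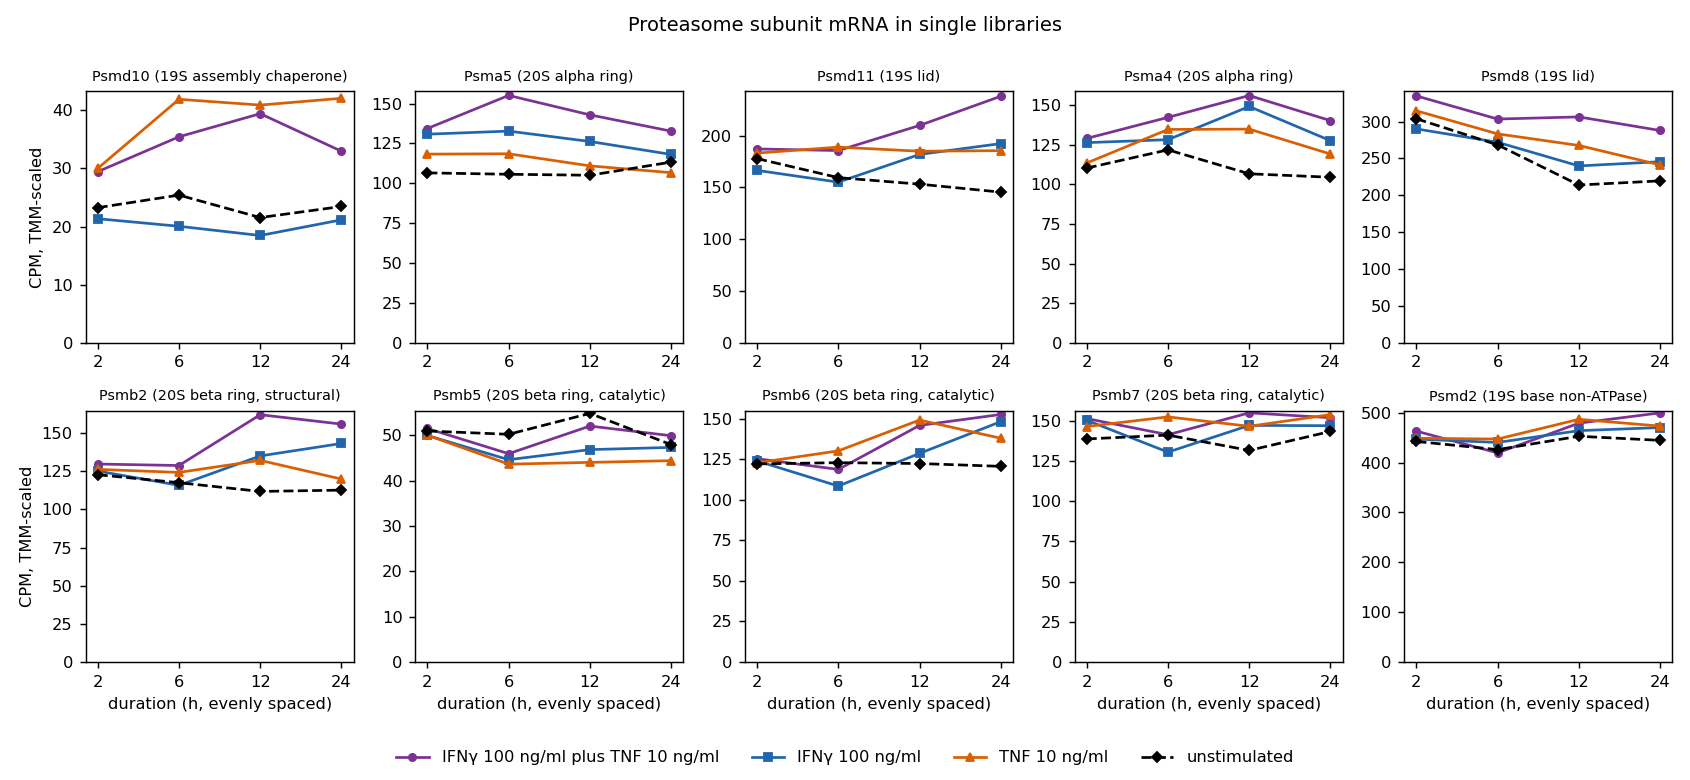
TMM-scaled CPM in single libraries at 2, 6, 12 and 24 h for 10 members (the 6 with the largest change in the combination, the 3 catalytic subunits and the least variable, Psmd2), with 1 point per library and the groups in the order combination, IFNγ at 100 ng/ml, TNF at 10 ng/ml, unstimulated. Psmd10 is high with the combination and with TNF and low with IFNγ alone, while Psmb5 stays between 43.6 and 54.8 CPM.

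The interferon-inducible partners moved by far more. Psmb8, Psmb9 and Psmb10 rose by 2.20, 3.19 and 2.60 (log2) with the combination, and all 5 genes of the immunoproteasome and PA28 list rose. Per kb of exon, the ratio of Psmb8 to Psmb5 at 2, 6, 12 and 24 h was 1.04, 2.78, 3.85 and 3.92 with the combination, against 0.459, 0.453, 0.831 and 0.597 in unstimulated cells. The ratio of Psmb10 to Psmb7 was 0.423, 1.58, 1.63 and 1.42 with the combination, against 0.163, 0.209, 0.322 and 0.171. The ratio of Psmb9 to Psmb6 stayed below 1, at 0.111, 0.439, 0.576 and 0.507 with the combination, against 0.0382, 0.032, 0.0776 and 0.0457. The level of each ratio depends on the exon lengths used, such as 1628 bases for Psmb8 and 899 for Psmb5. Its comparison between groups does not.

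**Figure D3:**
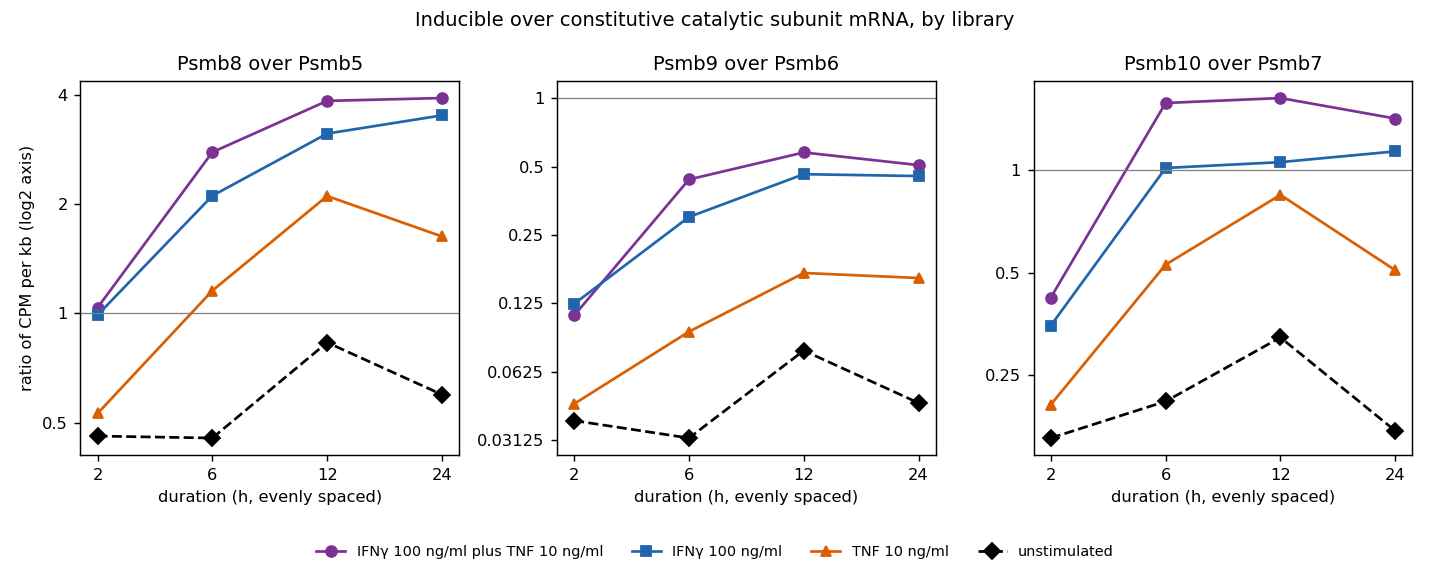
Ratio of CPM per kb of each inducible catalytic subunit to its constitutive partner (log2 axis) by duration, with 1 point per library. The combination leads IFNγ and TNF alone at 6, 12 and 24 h in each pair, and the Psmb9 to Psmb6 ratio stays below 1 in every library shown.

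Other genes of the pathway were counted from lists chosen by function. Of 5 chaperones of 20S assembly, 2 rose with the combination: Psmg4 by 0.90 and Pomp by 0.26, while Psmg1 stood at -0.25 and was not called. On library totals Psmg4 alone was higher, and Psmg1 and Psmg2 were lower. Of 7 other proteasome parts, 3 rose, among them Psmf1, an inhibitor of the core (0.33), and on library totals 0 rose and 2 fell. Of 5 regulators, Nfe2l1, the transcription factor known to raise proteasome genes when the proteasome is inhibited, rose by 0.38 and Ddi2, the protease that cleaves its protein to the active form, fell by 0.38, and both kept these directions and calls on library totals (0.21 and -0.55). Of tested members with a promoter window, 0 of 5 with the antioxidant core and 11 of 23 without it were called higher, where 20.9% of all tested genes were. The median change was 0.14 with the core and 0.12 without it. The other motifs were not split in this way, and whether calls differ with the core was not tested. Among 75 cytosolic ribosomal proteins, another set of abundant machinery, 2 rose and 4 fell (1 and 52 on library totals), with a median of -0.03.

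**Figure D4:**
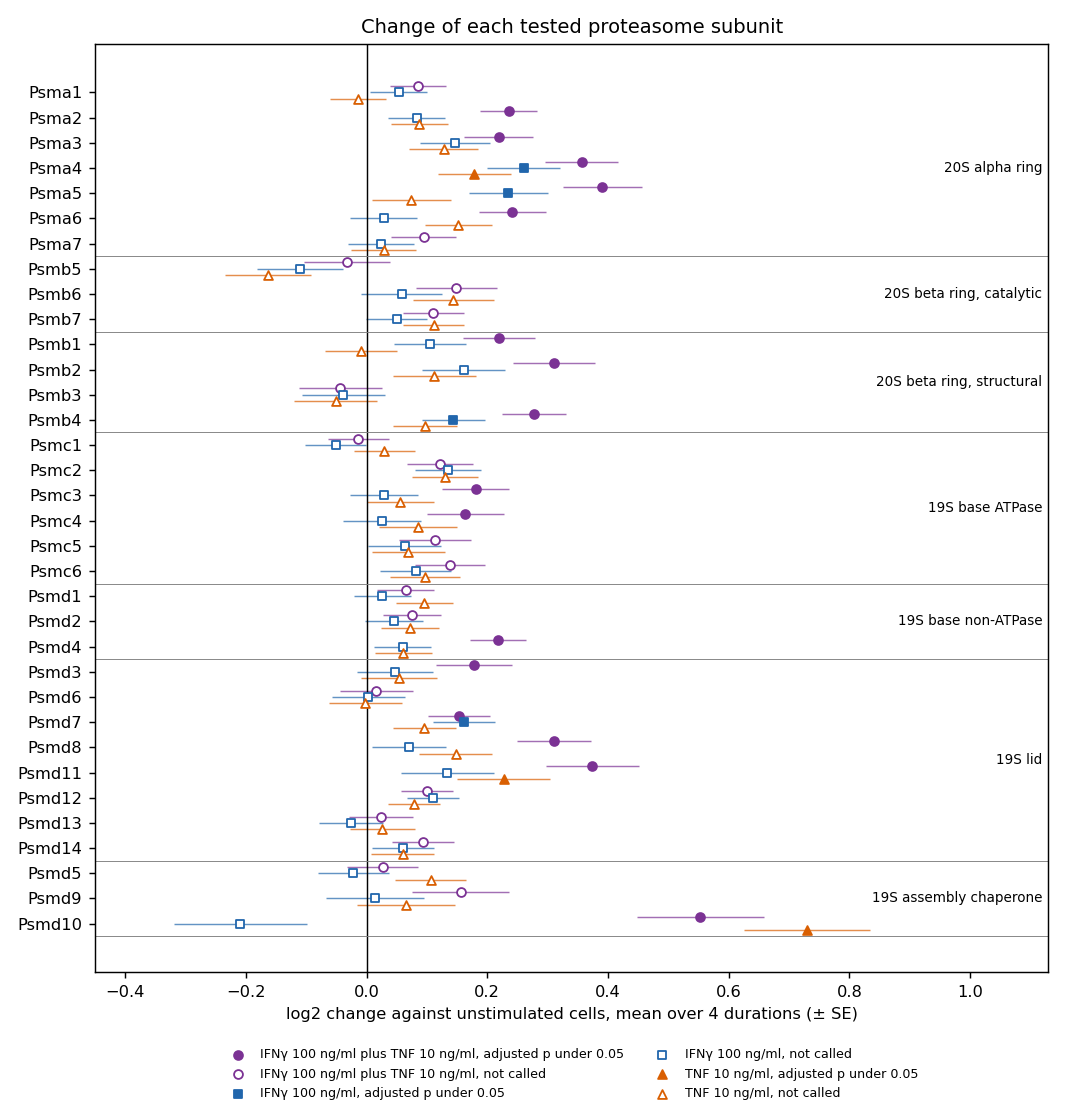
Log2 change (± SE) against unstimulated cells, as a mean over 4 durations, for the 34 tested members grouped by role, with the combination, IFNγ at 100 ng/ml and TNF at 10 ng/ml from top to bottom in each row and filled points where the adjusted p was under 0.05. Of the combination points 31 lie above 0, and Psmd10 lies at 0.55 with the combination, -0.21 with IFNγ and 0.73 with TNF.

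IFNγ alone at 100 ng/ml raised 4 members and lowered none, where 12.8% of all genes were higher and 9.3% lower. These were Psma4 (0.26 ± 0.06, edgeR, adjusted p = 0.00159), Psma5 (0.23), Psmd7 (0.16) and Psmb4 (0.14). Their share of the tested members was near the share of all genes called higher. Psma4 had 126, 128, 149 and 128 CPM with IFNγ, against 110, 122, 107 and 105 CPM in unstimulated cells, and Psma5 had 131, 133, 126 and 118 CPM, against 106, 106, 105 and 113 CPM. Neither group of libraries overlapped with the unstimulated ones. On library totals, where the median of all genes moved by -0.083, Psma4 was the 1 member called higher, and Psmb5 and Psmd10 were called lower. The counts were 0 without the 12 h libraries, 0 with the compared groups alone and 0 within the 2 and 6 h libraries. At 1 ng/ml, Psma4 (0.21) and Psmb4 (0.19) were higher and Psmb5 (-0.23 ± 0.07, edgeR, adjusted p = 0.023) was lower, where 9.51% of all genes were higher and 5.47% lower. In neither direction was the share of members called above that of all genes. On library totals, where the median of all genes moved by -0.074, Psmb5 and Psmc1 were lower and no member was higher. Psmb5 had 53.2, 38.6, 41.3 and 40.4 CPM at this dose, against 50.9, 50.2, 54.8 and 47.9 CPM in unstimulated cells. The libraries of 6, 12 and 24 h lay below every unstimulated one and that of 2 h did not. This call was lost without the 6, 12 or 24 h libraries, and Psmb5 stood at -0.11 with 100 ng/ml and was not called there. At 0.01 ng/ml no member was called, nor was any other gene (0%). DESeq2 called 0 members there as well, and 2 had an unadjusted p under 0.05.

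TNF at 10 ng/ml raised Psmd10, Psmd11 and Psma4, 3 of 34 members, where 9.83% of all genes were higher and 7.3% lower. That share of the members was near the share of all genes called higher. Psmd10 had 30.005, 41.9, 40.9 and 42.1 CPM with TNF, against 23.2, 25.4, 21.5 and 23.5 CPM in unstimulated cells, and the groups did not overlap. Its change of 0.73 ± 0.11 (edgeR, adjusted p = 2.92e-06), 1.66-fold, was the largest among members in any comparison with unstimulated cells and was called under each alternative run. Psmd11 rose by 0.23 and Psma4 by 0.18 (edgeR, adjusted p = 0.0368 and 0.0358), and neither was called on library totals or without the 6, 12 or 24 h libraries. On library totals, where the median of all genes moved by -0.074, Psmd10 was higher and Psmb5 was lower (0.66 and -0.24). Psmd10 had 30.6, 29.1, 25.1 and 28.4 CPM at 1 ng/ml and 29.3, 27.6, 22.2 and 23.7 CPM at 0.1 ng/ml, changes of 0.27 and 0.13 that were not called (adjusted p = 0.161 and 0.996). No other member was called at these doses, where 2.01% and 0.00819% of all genes were higher and 0.713% and 0.00819% lower. DESeq2 called 0 members at either dose, and 1 and 0 had an unadjusted p under 0.05. With IFNγ at 100 ng/ml Psmd10 had 21.3, 20.04, 18.5 and 21.2 CPM, below the unstimulated library of the same duration each time (-0.21 ± 0.11, edgeR, adjusted p = 0.173).

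Few members were called with the remaining cytokines. IFNα1 lowered 1 member, Psma7, the α4 subunit, and raised none, where 3.09% of all genes were lower and 6.18% higher. That share of members called lower was near that of all genes. Psma7 had 155, 129, 127 and 121 CPM with IFNα1, against 147, 161, 154 and 162 CPM in unstimulated cells (-0.23 ± 0.05, edgeR, adjusted p = 0.00312). It was above its unstimulated partner at 2 h and below it at each later duration. Without the 6, 12 or 24 h libraries the call was lost, at -0.19, -0.20 and -0.15. With TGF-β, lymphotoxin α1β2 and IL-2, 0 members were called higher and 0 lower by edgeR, where 5.02%, 0% and 0% of all genes were higher and 3.25%, 0% and 0% lower. At an unadjusted p under 0.05 these counts were 2, 1 and 0, DESeq2 called 0 in each, and the widest change was -0.13 for Psmb5 with IL-2.

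**Figure D5:**
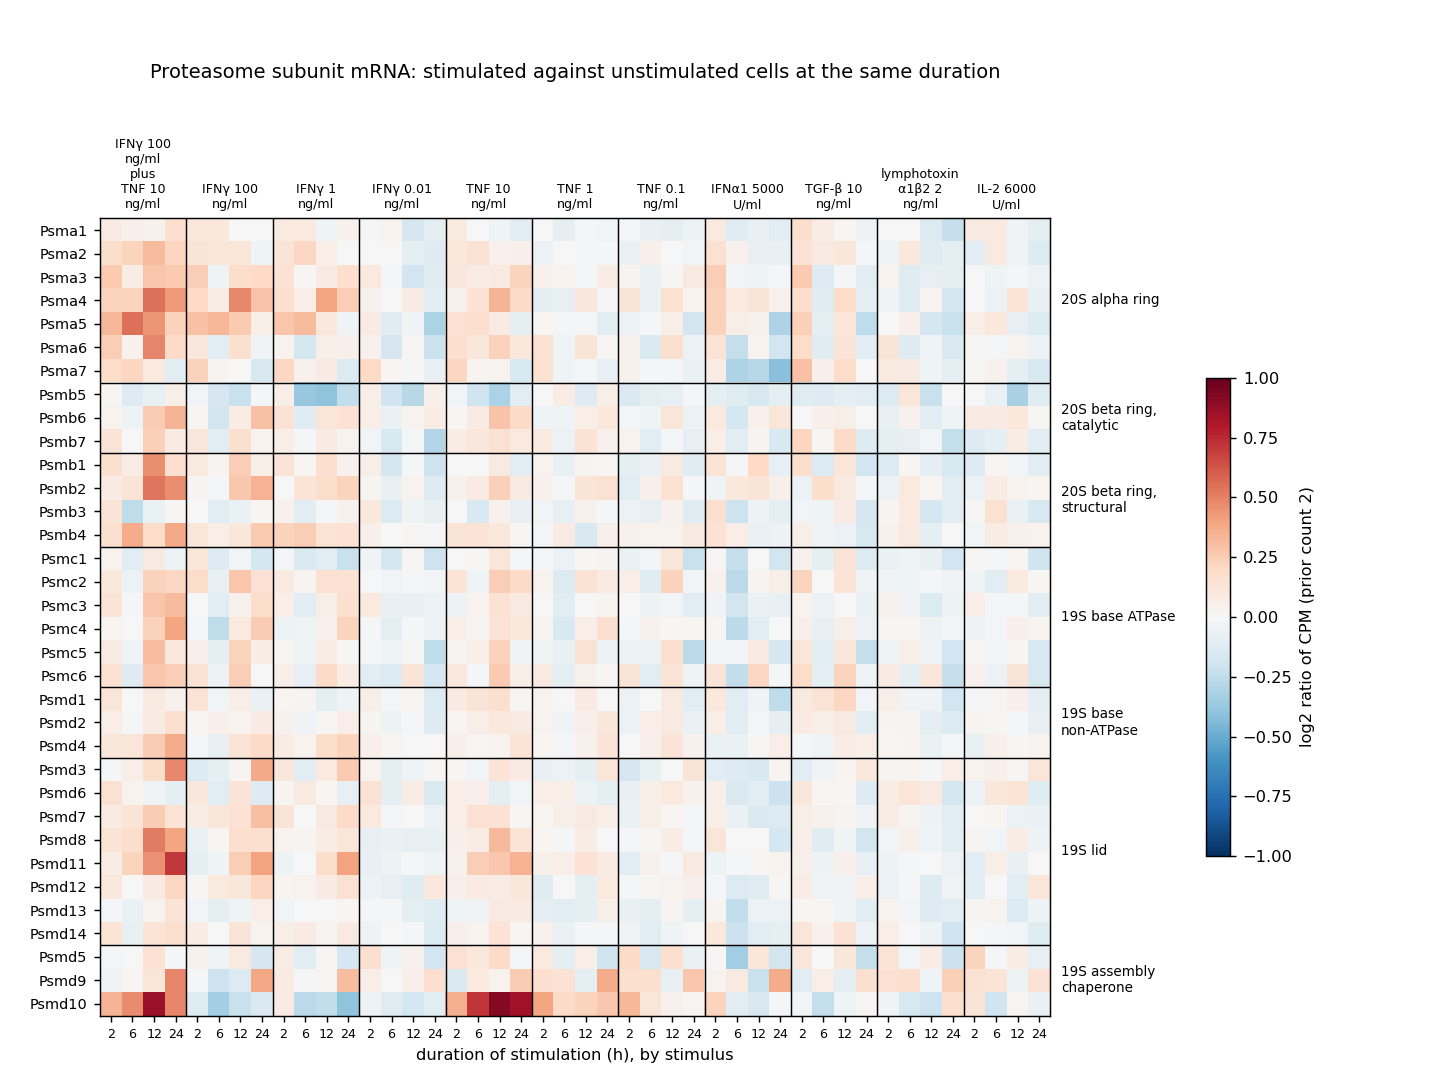
Log2 ratio of CPM (prior count 2) of each stimulated library to the unstimulated library of the same duration, for the 34 tested members in rows grouped by role and 11 stimuli in columns, each with 2, 6, 12 and 24 h from left to right. The combination columns are mostly above 0 at 2, 12 and 24 h, and the row of Psmd10 is high with the combination and TNF and below 0 with IFNγ at 100 ng/ml.

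The combination was then compared with each of its cytokines alone. Against IFNγ alone, the combination had 6 members higher and 0 lower, where 8.49% of all genes were higher and 5.42% lower. Psmd10 led at 0.76 ± 0.11 (edgeR, adjusted p = 1.49e-06), followed by Psmd11 and Psmd8 at 0.24 each, Psma6 at 0.21, Psmd4 at 0.16 and Psma2 at 0.15. Against TNF alone, 7 members were higher and 0 lower, where 9.12% of all genes were higher and 4.84% lower. Psma5 led at 0.32 ± 0.07 (edgeR, adjusted p = 0.000521), followed by Psmb1 (0.23), Psmb2 (0.20), Psmb4 (0.18), Psma4 (0.18), Psmd4 (0.16) and Psma2 (0.15). On library totals the counts were 2 higher and 0 lower against IFNγ, and 1 higher and 2 lower against TNF. That scaling moved the median of all genes by -0.086 and -0.096, and the share of all genes called under it is not given here. Against IFNγ 1 member was called without the 12 h libraries and 2 without those of 24 h, and against TNF 2 and 1. These comparisons share the combination libraries. The change with the combination differed from the sum of the changes with each cytokine alone in 0 members (edgeR; 1 at an unadjusted p under 0.05, Psmb5; 0 by DESeq2), where 0.0656% of all genes were higher than the sum and 0.0164% lower. For the members this difference ranged from -0.14 to 0.24, and for Psmd10 it was 0.03 ± 0.15.

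By duration, the median log2 ratio of the members with the combination was 0.12, 0.03, 0.23 and 0.21 at 2, 6, 12 and 24 h, with 30, 20, 31 and 30 of 34 members above 0, where 47.3% to 48% of all genes were. With IFNγ alone it was 0.06, -0.05, 0.12 and 0.07, and with TNF alone 0.05, 0.07, 0.14 and 0.09. Members vary together (median correlation 0.37 after the means of each stimulus and duration were removed), so a count of members above 0 does not hold independent observations. Over the 4 durations, 5 of 34 members lay above the median of all genes with lymphotoxin α1β2 and 7 with IFNγ at 0.01 ng/ml. No gene was called with either, so members lay mostly on 1 side there too. With the combination 21 members were called higher within the 12 and 24 h libraries and 2 within the 2 and 6 h libraries, where 22.6% and 10.3% of all genes were higher and 21.2% and 4.92% lower. The difference between these fits was not tested as such, and in the 2 and 6 h libraries the members' share was below that of all genes. A slope on log2 hours, relative to unstimulated cells, was called in 4 members with the combination, where 8.04% of all genes had a higher slope and 9.37% a lower one. Psmd11 gained 0.18 ± 0.04 per doubling of time (edgeR, adjusted p = 0.000457), Psmd3 and Psmb2 0.13 and Psmd8 0.09. Psmd11 had log2 ratios of 0.07, 0.22, 0.45 and 0.71 at the 4 durations. With the compared groups alone, or without the 24 h libraries, 0 members had a called slope, with the combination or with IFNγ alone. With IFNγ alone, Psmd11 and Psmd3 had slopes of 0.15 and 0.13, where 3.47% of all genes had a higher and 3.43% a lower slope, and with TNF alone 0 members had one (1.06% and 1.38%), with Psmd11 at 0.08 (edgeR, adjusted p = 0.273). The mitochondrial share of counts at 24 h was 0.513% with the combination and 0.964% in unstimulated cells, and its part in these slopes was not tested.

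Taken over all stimuli, more members fell than rose with time. At 6 h against 2 h, over 12 groups, 2 members were higher and 11 lower, where 29.6% of all genes were higher and 27.5% lower. The share of members called lower was near that of all genes, and the share called higher was below it. Psmc6, an ATPase, fell by 0.24, Psmd8 by 0.19 and Psmd1 by 0.18, and the chaperone Psmd9 rose by 0.23. At 24 h against 12 h, 0 members were higher and 12 lower, where 15.2% of all genes were higher and 16.9% lower, led by Psma4 (-0.18 ± 0.04, edgeR, adjusted p = 8.7e-05), Psmc4 (-0.17), Psmc2 and Psmd7 (-0.16 each). At 24 h against 2 h, 2 were higher and 19 lower, where 34.8% and 32.5% of all genes were. Psmd8 fell the most, at 224 ± 26.5 CPM at 24 h and 309 ± 14.6 CPM at 2 h (SD over 12 libraries each; -0.47 ± 0.04, edgeR, adjusted p = 6.12e-15), and was lower in all 12 pairs. Psmd6 fell by 0.27, and Psmd9 and Psma1 rose by 0.12 and 0.06. The 2 and 6 h libraries use 24 index sequences and the 12 and 24 h libraries reuse the same 24, so 24 h against 2 h crosses these sets and the sets cannot be told apart from time there. On library totals the counts were 3 higher and 6 lower at 6 h against 2 h, 1 and 8 at 24 h against 12 h, and 4 and 10 at 24 h against 2 h. That scaling moved the median of all genes by 0.037, 0.034 and 0.058. The share of all genes called under it is not given here. Cytosolic ribosomal proteins did not share the direction throughout: 39 of 75 fell at 6 h against 2 h, and 30 rose at 24 h against 12 h. On library totals 14 fell and 42 rose in these comparisons. At 24 h against 2 h, 34 of 75 fell and 6 rose with DESeq2 size factors, and 12 fell and 10 rose on library totals. Of 77 mitochondrial ribosomal proteins, 39 rose and 4 fell at 6 h against 2 h with DESeq2 size factors. With the same factors, 3 rose and 17 fell at 24 h against 12 h, and 24 rose and 14 fell at 24 h against 2 h. Falls with time were thus not confined to the members.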

How the data were processed

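The authors deposited unnormalised counts of reads for 49671 Ensembl genes. HISAT and GRCm38 come from the submitters' processing notes. For the HISAT version, the counter, its strand setting and the annotation release, the sources used here give nothing. Of 36 members, 27 had the same start and end in the GENCODE M21 annotation, used for exon lengths.

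The software was edgeR 4.0.16 and, as an alternative, DESeq2 1.42.0, run in R 4.3.3. After filtering (minimum count 10, minimum total 15) and TMM scaling, a robust quasi-likelihood model with 1 term per stimulus and 1 per duration had 33 residual degrees of freedom, so each stimulus effect is a mean over 4 durations. A slope model had 22. The duration term is the replicate block: libraries of 1 duration are matched by their labels. Calls are two-sided, with Benjamini-Hochberg adjusted p under 0.05 over all tested genes. SE is the absolute log2 change over the square root of F, an approximation. Single-duration ratios carry no test. The edgeR steps were run on simulated counts with known changes, independent libraries, no effect of duration and 1 dispersion for all genes. Such counts do not show how the p-values behave in these libraries.

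Doses were read from the stimulus labels. Other fields for dose hold 1 in place of 0.1 or 0.01 ng/ml. The co-culture supernatant named in the protocol was not analysed here. The members, lists and comparisons were chosen with earlier results of these data known. Per comparison, up to 10 called members of largest change are named, with Psmb5, Psmb6 and Psmb7 always allowed. Of 4 described pseudogene copies of proteasome subunits, the counts summed to 17.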

Additional observations from a re-analysis of the deposited data

Results flagged for a closer look

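Of 52 groups of 4 libraries checked, those of the summed member level and of the members given library by library, 3 held a library far from the other 3, and chance flags about 1 in 20 such groups. With TNF at 10 ng/ml, Psmd10 had 30.005 CPM at 2 h, far below the later libraries. With IFNγ at 100 ng/ml, Psma4 had 149 CPM at 12 h, far above the others. With TNF at 10 ng/ml, Psmb5 had 50.008 CPM at 2 h, above the others. As the 4 libraries of a group are durations, such a library can differ by its duration.

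For some members the change against unstimulated cells differed between durations by a test of the slope on log2 hours (edgeR). With the combination the slopes were 0.18 for Psmd11, 0.13 for Psmd3, 0.13 for Psmb2 and 0.0917 for Psmd8. With IFNγ alone at 100 ng/ml they were 0.15 for Psmd11 and 0.13 for Psmd3. Of all genes, 8.04% had a higher and 9.37% a lower slope with the combination, and 3.47% and 3.43% with IFNγ alone. No member had a called slope with the compared groups alone or without the 24 h libraries.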

How the results depend on the processing

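Members were counted in 20 comparisons, and at least 1 was called in 12 of them. Counts under the alternatives are given here without the share of all genes called, and alone they do not set the members apart. Library totals with no TMM factors were chosen after seeing the data. They gave 2 calls for the combination against IFNγ, 3 against TNF and 11 against unstimulated cells (5 higher, 6 lower), and moved Psmb6 and Psmb7 below 0 with the combination (-0.0216 and -0.0587) and with IFNγ at 100 ng/ml (-0.0257 and -0.0334). Without the replicate block the count was 0 for IFNα1, IFNγ at 1 and at 100 ng/ml and the slope of IFNγ, 1 for TNF at 10 ng/ml, the combination against IFNγ and its slope, 2 against TNF, and 12 for the combination against unstimulated cells. With the compared groups alone it was 4 for the combination, 3 against IFNγ, 1 against TNF, and 0 for IFNα1, IFNγ at 1 and at 100 ng/ml and both slopes. Without a filter on low counts it was 12 for 24 h against 2 h, 8 for 6 h against 2 h, 3 against TNF, 2 for IFNγ at 100 ng/ml and the slope of the combination, and 1 for IFNγ at 1 ng/ml, TNF at 10 ng/ml and the slope of IFNγ. DESeq2 gave 7 for IFNγ at 100 ng/ml. With IL-2 in place of unstimulated cells the count was 8 for IFNγ at 100 ng/ml, 6 for TNF at 10 ng/ml and 1 for TGF-β, and Psmb5 turned to 0.0989 with the combination and 0.0215 with IFNγ, where Psmb6 turned to -0.0112. With that reference Psmb7 was called higher with the combination (0.17, edgeR, adjusted p = 0.00517).

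Within the 2 and 6 h libraries the count was 2 for the combination, 1 against IFNγ, 0 against TNF, 1 for TNF at 10 ng/ml and 0 for IFNα1 and for IFNγ at 1 and at 100 ng/ml, and Psmb6 turned to -0.00196 with the combination and -0.0693 with IFNγ. Within the 12 and 24 h libraries it was 12 against TNF and 6 for TNF at 10 ng/ml. Slopes could not be fitted within 2 durations. With each duration left out in turn, counts ran from 10 to 23 for the combination, 1 to 6 against IFNγ, 1 to 7 against TNF, 0 to 7 for IFNγ at 100 ng/ml, 0 to 4 at 1 ng/ml, 1 to 5 for TNF at 10 ng/ml, 0 to 1 for IFNα1, 0 to 3 for the slope of the combination and 0 to 2 for that of IFNγ. The low ends came without the 12 h libraries for the combination, against IFNγ and for IFNγ at either dose, and without the 24 h libraries against TNF and for both slopes. Psmb5 ran from -0.0571 to 0.011 with the combination (highest without 6 h) and Psmb6 from -0.0172 to 0.139 with IFNγ (lowest without 24 h). The cause of these changes was not tested. Over 872 recomputed changes of named members, 639 kept their direction and side of the threshold, 210 lost the call, 12 gained it and 11 turned direction. With 1 library per stimulus and duration, a difference at a single duration cannot be tested.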
